A study of Arabidopsis thaliana with 72 samples.

Results

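The alpha-expansins are described here across the leaves of 2 *Arabidopsis thaliana* demes. They are the 10 genes EXPA1 (AT1G69530), EXPA3 (AT2G37640), EXPA4 (AT2G39700), EXPA5 (AT3G29030), EXPA6 (AT2G28950), EXPA8 (AT2G40610), EXPA9 (AT5G02260), EXPA10 (AT1G26770), EXPA11 (AT1G20190) and EXPA15 (AT2G03090), picked by their identifiers among the 18603 genes of the expression table. All 10 have a row in it. Expansins are secreted proteins of the plant cell wall that loosen the contacts between cellulose microfibrils and matrix glycans without cutting them. They act best in an acidic wall, so that proton pumping by the plasma membrane H+-ATPases and expansin supply together set how fast a wall yields to turgor, and auxin, brassinosteroids and gibberellins raise the transcripts of several of them in growing organs.

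The demes are A1(c+), labelled tolerant, which comes from soil with moderate carbonate, and T6(c-), labelled sensitive, from soil with little. The tolerance meant is to carbonate. Plants grown in hydroponics were 15 days old when they were moved to nutrient solution at pH 5.9 (the control), to solution buffered at pH 8.3 without bicarbonate (pH8.3), or to one at the same pH that held 10 mM NaHCO3 (bic). Leaves were harvested 3 h or 48 h later. These 2 demes, 3 solutions and 2 harvests give 12 groups of 2 biological replicates, each replicate being pooled plants and the sum of technical replicates. The 24 replicates held 63.51 to 120.6 M reads (median 99.68 M), and levels are given as CPM, the counts of a gene per M reads of its library.

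Some replicates did not match their deme label. Taking the 117 genes whose lowest level in one deme at pH 5.9 exceeded the highest in the other by at least 5 on the log2 scale, replicates labelled A1(c+) had 111 to 117 genes nearer to the A1(c+) level, apart from A1(c+) bic 3 h replicate 2 with 62. T6(c-) pH8.3 48 h replicate 1 had only 58 of the 117 genes nearer to the T6(c-) level. A1(c+) pH8.3 48 h replicate 1, whose deme was already in doubt before this check, had 111 genes on the A1(c+) side, and the other 6 were all genes high in T6(c-). These 3 replicates are called in doubt below, and the comparisons they change are given with and without them. Of the other T6(c-) replicates, T6(c-) pH8.3 3 h replicate 2 had 90, T6(c-) bic 3 h replicate 2 had 85, and T6(c-) bic 48 h replicates 1 and 2 had 71 and 88 of the 117 genes on the T6(c-) side, the genes on the wrong side being almost entirely ones high in A1(c+) at pH 5.9. Replicate 1 of T6(c-) pH8.3 3 h and of T6(c-) bic 3 h, in the same solutions, had 115 each. Why the 3 h partners differed was not tested. Because the set was defined at pH 5.9, a response of those genes to the solution and a mixture of demes cannot be told apart for T6(c-) bic 48 h.

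**Figure D1:**
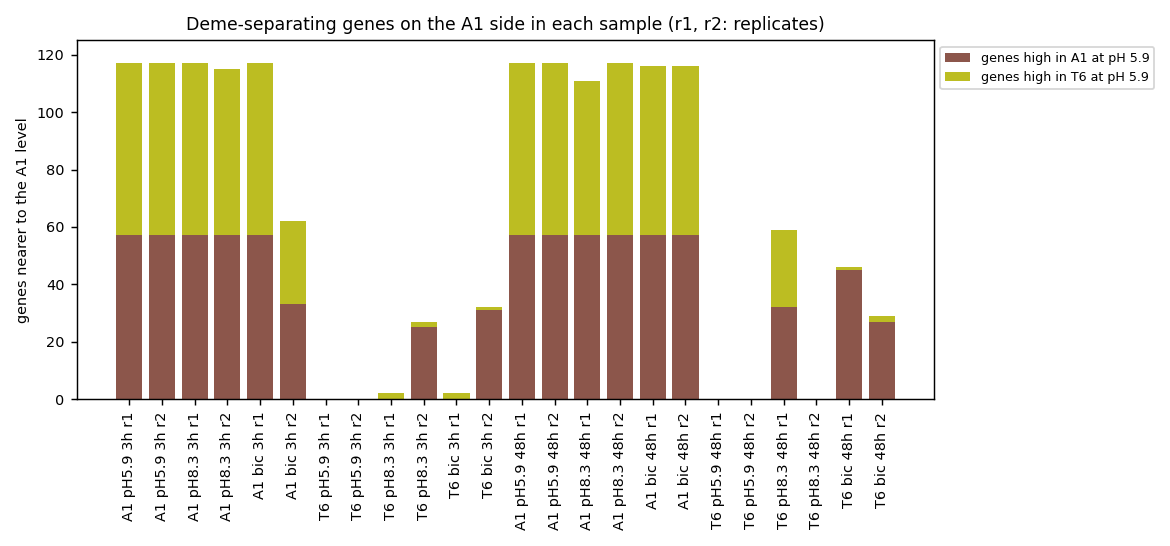
Number of the 117 deme-separating genes (vertical axis) that lay nearer to the A1(c+) level in each of the 24 replicates (horizontal axis), split by colour into the 57 genes high in A1(c+) and the 60 high in T6(c-) at pH 5.9. A1(c+) bic 3 h replicate 2 and T6(c-) pH8.3 48 h replicate 1 stand near the middle of the scale.

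Leaf identity was checked with markers. The mesophyll genes LHCB1.1, RBCS1A and RBCS2B had median levels of 4347, 14870 and 2531 CPM, and the guard cell, epidermal, vascular and dividing-cell markers (3 genes each) were above 0 in every replicate. Of 5 root markers only PYK10, a beta-glucosidase, had a row, at 3.22 to 507 CPM, with its highest value in T6(c-) bic 48 h replicate 2. In bulk leaf RNA fewer cells of a type and less RNA per cell cannot be told apart.

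By RefSeq gene models on TAIR10.1 (the processing notes name TAIR10), the members were spread over 4 chromosomes. EXPA1 lies at chr1:26141726-26143538 and EXPA10 at chr1:9259432-9261313, both on the plus strand, and EXPA11 at chr1:6998335-6999839 on the minus strand. Chromosome 2 carries EXPA15 at chr2:916806-918671, EXPA6 at chr2:12431338-12433796, EXPA3 at chr2:15787523-15790139, EXPA4 at chr2:16543832-16545746 and EXPA8 at chr2:16948791-16950705, all on the minus strand. EXPA5 is at chr3:11011262-11013451 on the minus strand and EXPA9 at chr5:463073-465273 on the plus strand. None of the 50-base stretches of the members' transcripts (1276 to 1733 per gene) occurred in a transcript of another gene.

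The 250 bases before the annotated start are shown for EXPA1 and EXPA10, which share a palindrome, and for EXPA6 and EXPA8, which with EXPA1 belong to the 4 genes that fell with bicarbonate in T6(c-). They are written 5′ to 3′ on the strand of the gene, with the motifs searched in capitals. The upstream stretches are chr1:26141476-26141725 (plus) for EXPA1, chr1:9259182-9259431 (plus) for EXPA10, chr2:12433797-12434046 (minus) for EXPA6 and chr2:16950706-16950955 (minus) for EXPA8.
EXPA1: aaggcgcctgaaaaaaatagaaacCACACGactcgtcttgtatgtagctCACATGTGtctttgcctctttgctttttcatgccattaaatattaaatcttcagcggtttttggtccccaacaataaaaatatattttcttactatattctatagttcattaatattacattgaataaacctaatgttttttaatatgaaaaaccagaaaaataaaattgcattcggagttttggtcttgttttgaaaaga
EXPA10: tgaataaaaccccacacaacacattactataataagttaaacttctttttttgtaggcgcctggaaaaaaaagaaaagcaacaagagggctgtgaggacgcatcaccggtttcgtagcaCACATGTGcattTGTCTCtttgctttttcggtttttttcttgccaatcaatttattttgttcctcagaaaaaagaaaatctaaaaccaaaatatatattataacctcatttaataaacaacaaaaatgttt
EXPA6: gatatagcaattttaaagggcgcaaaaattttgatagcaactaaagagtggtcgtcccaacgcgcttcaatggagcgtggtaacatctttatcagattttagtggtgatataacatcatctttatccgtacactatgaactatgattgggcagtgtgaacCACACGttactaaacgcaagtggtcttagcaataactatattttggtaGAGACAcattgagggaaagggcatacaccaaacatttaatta
EXPA8: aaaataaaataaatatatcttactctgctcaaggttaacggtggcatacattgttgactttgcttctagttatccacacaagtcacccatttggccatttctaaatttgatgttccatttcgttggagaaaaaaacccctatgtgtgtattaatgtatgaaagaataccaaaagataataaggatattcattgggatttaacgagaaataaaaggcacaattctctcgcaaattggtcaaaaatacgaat

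The motifs were searched on both strands in windows of 300 bases (250 before and 50 after the start) of 27443 protein-coding genes. CACATG, an E-box bound by bHLH factors such as PIFs and HBI1, was present in EXPA1, EXPA10 and EXPA11 and in 12.9% of all windows. In EXPA1 and EXPA10 it forms the palindrome CACATGTG, which holds CACATG on each strand, starts at positions -201 and -131 from the transcript start and occurs in 0.445% of windows (122 genes), and which was looked for only after it had been seen in EXPA1. TGTCTC, the core of the auxin response element, was present in EXPA5, EXPA6, EXPA8 and EXPA10 (14.2% of windows), in EXPA8 only after the start, so that its upstream stretch has no capitals. CGTGTG, a brassinosteroid response element, was present in EXPA1 and EXPA6 (6.52%), and AAAAATCT, the binding site of the clock factor CCA1, in EXPA5 (7.88%). The G-box CACGTG (7.68%), the evening element AAAATATCT (2.82%) and CGTGCG (1.96%) were not in any member's window. A match describes these letters only.

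Per kb of the longest transcript, EXPA1 had the highest median level over the 24 replicates, 82.7 CPM per kb, with a range of 16.3 to 420. EXPA1 is known from guard cells, where it takes part in stomatal opening. On the same scale EXPA5 (52.7), EXPA11 (52.3) and EXPA6 (48.0) followed, then EXPA3 (33.8), EXPA10 (30.6), EXPA8 (19.7), EXPA4 (17.9), EXPA15 (11.1) and EXPA9 (1.80). EXPA10 is a leaf expansin whose antisense plants have smaller leaves, and EXPA5 is induced by brassinosteroids. The ranges of neighbours in this order overlapped at every step. EXPA9, the lowest, was still read 80 to 1033 times in each replicate. As a ratio, the widest range belonged to EXPA8, from 0.424 to 124 CPM per kb, and its lowest value, in T6(c-) bic 48 h replicate 2, rests on 58 reads.

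**Figure D2:**
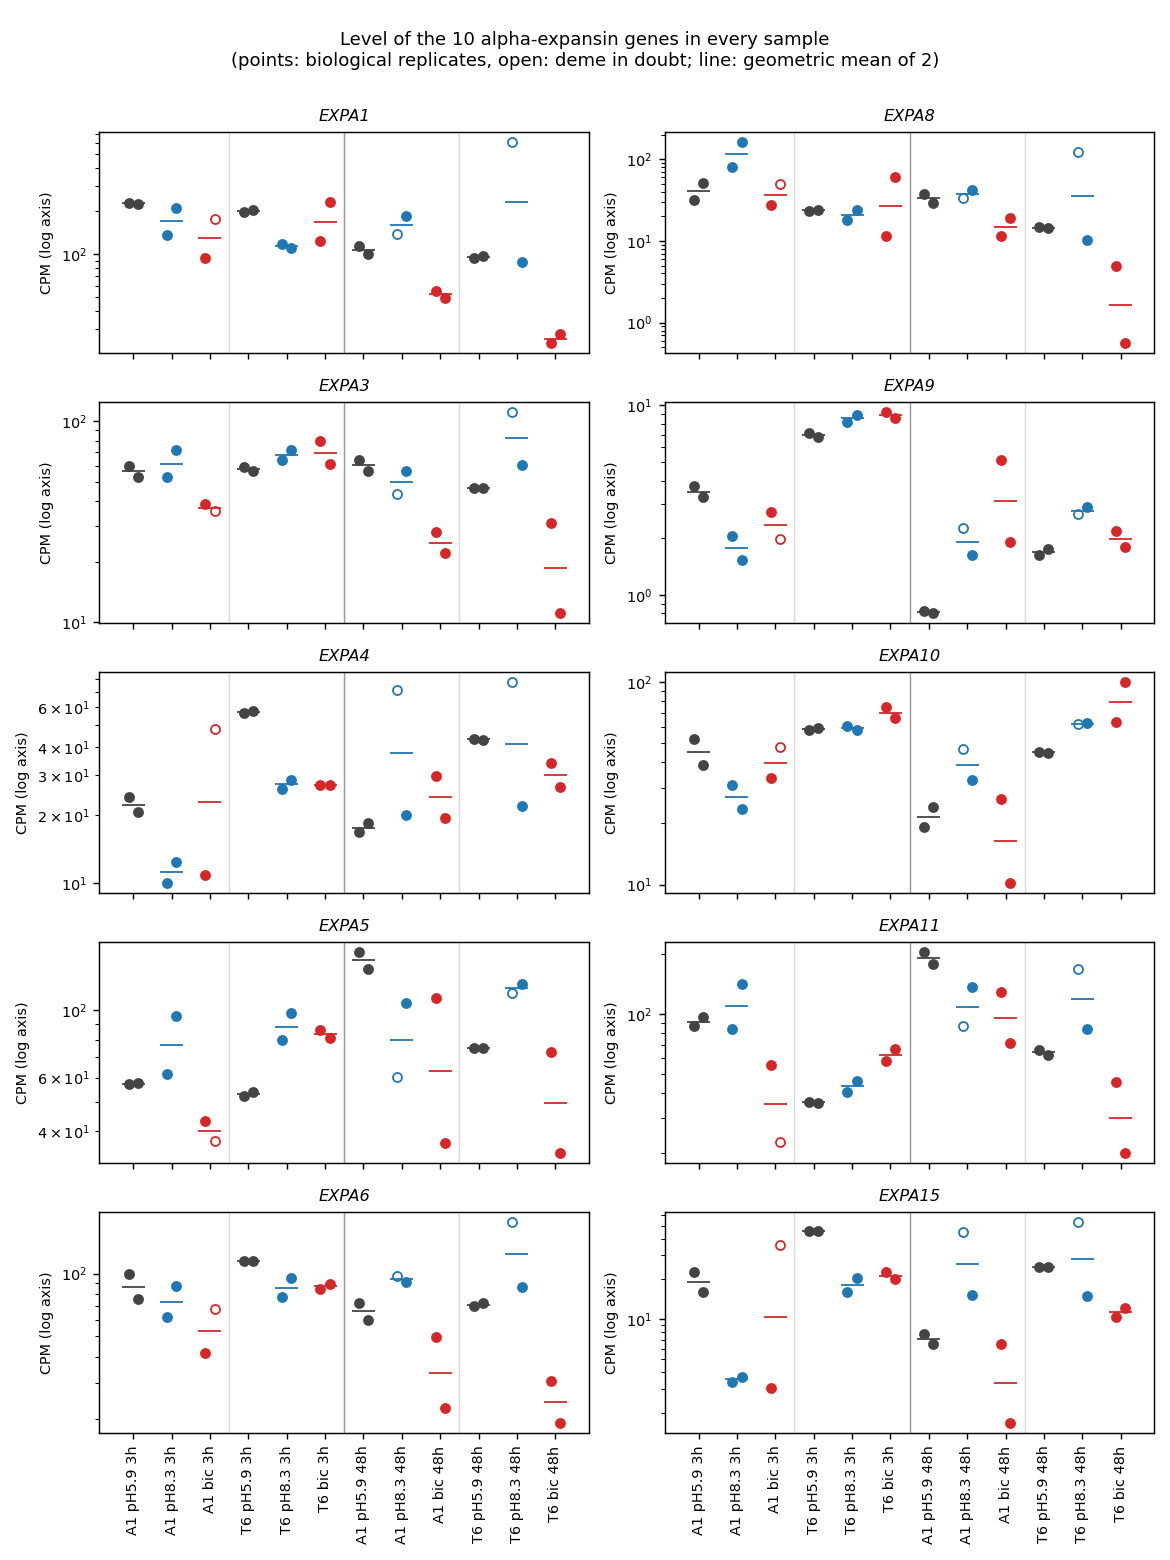
Level of each alpha-expansin in CPM (vertical, log axis) in the 12 groups (horizontal axis, 3 h groups left of the central line and 48 h groups right of it), each point a biological replicate, open points the 3 replicates in doubt and each line the geometric mean of 2 replicates. All members except EXPA4 and EXPA9 have their lowest point in a bic group at 48 h.

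The first comparison averages the harvest difference over the solutions, so a response to a solution at only 1 harvest also enters it. Averaged over both demes and all 3 solutions, EXPA9 and EXPA8 were lower at 48 h than at 3 h. The log2 fold changes were -1.23 ± 0.14 (SE; adjusted p = 4.36e-06, limma) and -1.19 ± 0.43 (adjusted p = 0.0283), that is 2.35-fold and 2.29-fold. A gene was called where the adjusted p was under 0.05 and the log2 fold change beyond 1 in either direction. Each share of all genes given beside a count of members covers calls in either direction. EXPA9 and EXPA8 were 2 of 10 members, where 10.0% of all genes were called. An unadjusted p under 0.05 was found for 8 members and for 10848 of the 18603 genes. EXPA1 (-0.87 ± 0.24, adjusted p = 0.00741), EXPA3 (-0.46), EXPA6 (-0.45) and, in the other direction, EXPA11 (0.62 ± 0.18, adjusted p = 0.0104) passed the p but not the fold. The median log2 fold change of the members was -0.39, against -0.08 over all genes. The call of EXPA8 was lost in 7 of the 24 fits that each leave out 1 replicate, for example without T6(c-) bic 48 h replicate 2 (-0.93, adjusted p = 0.0562), and that of EXPA9 in 0. Without T6(c-) pH8.3 48 h replicate 1, EXPA1 was called as well, at -1.11, and without all 3 replicates in doubt EXPA8 and EXPA9 were called, at -1.40 and -1.30 (11.0% of all genes).

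EXPA9 carried the clearest time difference at pH 5.9. In A1(c+) its level was 3.74 and 3.27 CPM at 3 h and 0.818 and 0.803 CPM at 48 h. In T6(c-) it was 7.16 and 6.81 CPM at 3 h and 1.62 and 1.75 CPM at 48 h. The harvests did not overlap in either deme, and the fall was 4.29-fold in A1(c+) (log2 -2.10 ± 0.35, adjusted p = 0.000748) and 4.14-fold in T6(c-) (log2 -2.05 ± 0.35, adjusted p = 0.000968). Complete separation of 2 replicates from 2 has an exact two-sided permutation p of 0.333. The share of all genes that separate in this way was not computed, so a lack of overlap is description only, here and below.

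In the other solutions the 48 h minus 3 h difference of EXPA9 in T6(c-) was -1.62 at pH8.3 and -2.17 in bic. In A1(c+) it was 0.11 at pH8.3 and 0.42 in bic, where the levels were 2.75 and 1.98 CPM at 3 h and 5.17 and 1.89 CPM at 48 h. EXPA8 differed between harvests by -3.99 in T6(c-) bic but by 0.76 in T6(c-) pH8.3, the latter resting on the replicate in doubt. In A1(c+) its difference was -1.63 at pH8.3 and -1.31 in bic. At pH 5.9 EXPA8 was not called, with -0.29 in A1(c+) (adjusted p = 0.857, limma) and -0.7 in T6(c-) (adjusted p = 0.679).

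In untreated A1(c+), EXPA5 rose from 57.3 and 57.5 CPM at 3 h to 156 and 137 CPM at 48 h (log2 1.35 ± 0.42, adjusted p = 0.0249). EXPA10 fell from 52.2 and 38.8 CPM to 19.3 and 24.3 CPM (log2 -1.06 ± 0.34, adjusted p = 0.0311). Neither pair of harvests overlapped, but leaving out any 1 of the 4 replicates ended the call of each gene, with an adjusted p of up to 0.128 for EXPA5 and 0.18 for EXPA10. TMM (adjusted p = 0.0748) and quantile normalization (adjusted p = 0.0561) also ended the call of EXPA10. With EXPA9 these were 3 of 10 members called in A1(c+) at pH 5.9 (15.1% of all genes). In T6(c-) at pH 5.9 EXPA9 was the only member called (9.22% of all genes), and EXPA5 and EXPA10 stood at 52.4 and 54.0 CPM and 57.8 and 58.9 CPM at 3 h against 75.2 and 75.2 CPM and 45.04 and 44.75 CPM at 48 h. Without the 3 replicates in doubt, 6 members were called in A1(c+), EXPA5 and EXPA11 upward and EXPA1, EXPA9, EXPA10 and EXPA15 downward (19.8% of all genes), and in T6(c-) EXPA1 and EXPA9, 2 members, downward (12.5% of all genes). Markers of other cells differed between the harvests too. In A1(c+) PDF1 (-4.51) fell and KCS6 (1.93) rose among the epidermal markers, and CYCB1;1 (-2.98) and CDKB2;1 (-1.86) of dividing cells fell, the 3 dividing-cell markers summing to 18.1 and 12.3 CPM at 3 h and 3.25 and 3.32 CPM at 48 h. In T6(c-) KCS6 (1.38) rose, though the median of the 3 epidermal markers was -0.16. The vascular XCP1 (-1.16) fell there, the median of the 3 vascular markers being -0.74. Their part in the expansin values was not tested.

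The harvests also differed in genes of the circadian clock. LHY, a morning gene, was at 8.996 to 36.1 CPM in the 3 h replicates and 267 to 893 CPM in the 48 h replicates, and CCA1, its close partner, at 92.2 to 175 against 409 to 890 CPM. Of 12 clock genes 3 rose and 5 fell. Time of day, age and time in the solution cannot be told apart between harvests, so each solution was set against pH 5.9 of its own harvest.

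**Figure D3:**
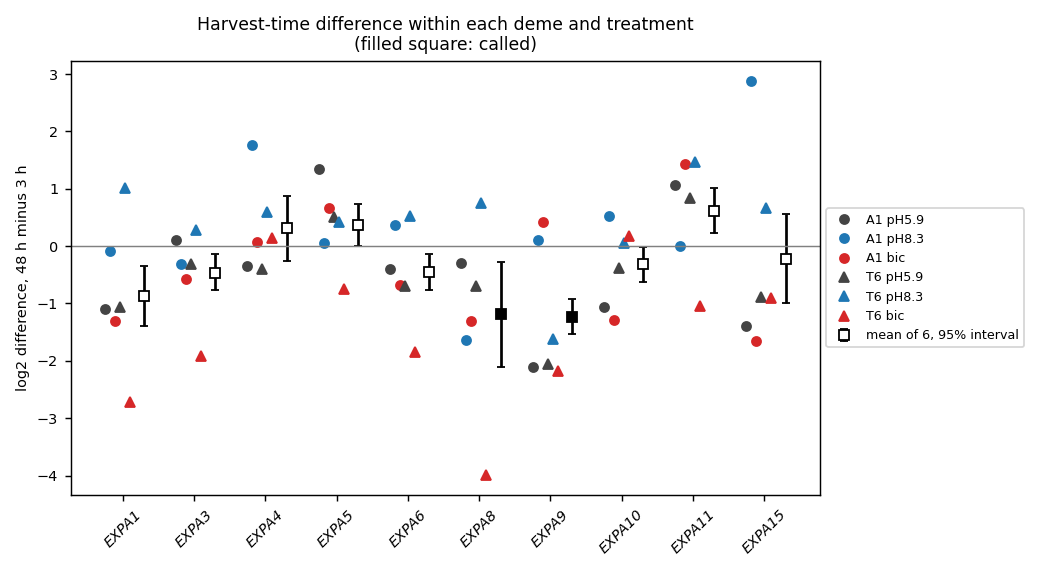
Difference in log2 CPM between 48 h and 3 h (vertical axis) for each alpha-expansin (horizontal axis), one coloured symbol for each deme and solution, the shape marking the deme, and a black square with its 95% interval for the mean of the 6. EXPA9 lies between -2.17 and -1.62 in A1(c+) pH 5.9 and in T6(c-), and at 0.11 and 0.42 in A1(c+) pH8.3 and bic, and the squares of EXPA8 and EXPA9 are filled because they were called.

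After 48 h of bicarbonate in T6(c-), EXPA1, EXPA3, EXPA6 and EXPA8 fell against pH 5.9, 4 of 10 members. In this comparison 18.9% of all genes were called, 957 of them falling and 2559 rising. No member was called upward. Their shared direction stood beside an all-gene median of 0.30, the median of the 10 members being -1.11.

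EXPA8, a brassinosteroid-induced expansin, was at 14.7 and 14.6 CPM at pH 5.9 and at 4.94 and 0.562 CPM in bic. EXPA1 was at 94.5 and 97.7 CPM at pH 5.9 and at 23.8 and 27.5 CPM in bic. In neither gene did the groups overlap, and the falls were 8.74-fold for EXPA8 (log2 -3.13 ± 1.04, adjusted p = 0.0266) and 3.75-fold for EXPA1 (log2 -1.91 ± 0.60, adjusted p = 0.0197).

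EXPA3 was at 46.5 and 46.8 CPM at pH 5.9 and at 31.2 and 11.1 CPM in bic (log2 -1.32 ± 0.36, adjusted p = 0.00941). EXPA6 was at 69.8 and 71.9 CPM at pH 5.9 and at 30.5 and 19.3 CPM in bic (log2 -1.55 ± 0.37, adjusted p = 0.0043). Both bic replicates lay below both controls, and the distance between the bic replicates was far wider than between the controls.

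The other 6 members did not pass. EXPA11, at 66.1 and 62.4 CPM against 45.3 and 20.0 CPM in bic, had a log2 fold change of -1.09 (adjusted p = 0.0656), and EXPA15 one of -1.13 (adjusted p = 0.33). EXPA10 had a positive value, at 45.04 and 44.75 CPM against 63.5 and 100.0 CPM (log2 0.83 ± 0.34, adjusted p = 0.0669). EXPA5, EXPA4 and EXPA9 stood at -0.60, -0.52 and 0.23.

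These calls depended on single replicates and on the fit. Without replicate 2 of the bic group no member was called (EXPA1 -2.01, adjusted p = 0.0625; EXPA6 -1.21, adjusted p = 0.0564; EXPA8 -1.56; EXPA3 -0.58), and without replicate 1 EXPA3, EXPA6, EXPA8 and EXPA11 were called downward and EXPA10 upward. Without either pH 5.9 replicate EXPA1 and EXPA8 were not called (adjusted p = 0.0761 to 0.0977), and with voom weights EXPA8 was not (adjusted p = 0.169). A fit of only the 2 groups compared called EXPA1, EXPA6 and EXPA15 but not EXPA3 (adjusted p = 0.106) or EXPA8 (adjusted p = 0.0813). TMM and quantile normalization called 5 members, the 4 above and EXPA11. Without the 3 replicates in doubt, none of which is in this comparison, 6 members were called downward, EXPA11 and EXPA15 in addition (22.9% of all genes called in either direction).

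Other leaf genes moved in the same libraries. The 3 mesophyll markers all fell (LHCB1.1 -1.81, RBCS1A -1.50, RBCS2B -3.15), their summed level being 23840 and 24510 CPM at pH 5.9 and 8573 and 6270 CPM in bic. Epidermal markers summed to 431 and 419 CPM against 1106 and 967 CPM, with KCS6 rising, and vascular markers to 73.4 and 76.5 CPM against 130 and 176 CPM, with IRX3 and XCP1 rising. The root marker PYK10 was at 139 and 143 CPM against 181 and 507 CPM, the other 4 root markers having no row. As given above, 71 and 88 of 117 deme-separating genes were on the T6(c-) side in the bic replicates. What part any of these have in the alpha-expansin values was not tested. The pH 5.9 replicates of T6(c-) differed little, with a median variance of 1.66 and 2.07 times counting noise at 3 h and 48 h, against 9.75 to 177 times in the other groups.

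In A1(c+) at 48 h the same comparison gave 1 call of 10, EXPA9, and 0.333% of all genes were called. EXPA9 was at 0.818 and 0.803 CPM at pH 5.9 and at 5.17 and 1.89 CPM in bic, without overlap, and so was 3.84-fold higher (log2 1.94 ± 0.35, adjusted p = 0.0254). Without pH 5.9 replicate 1 the adjusted p was 0.342, and with quantile normalization it was 0.0871.

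The 4 members called in T6(c-) had negative values in A1(c+) bic that did not pass the test. EXPA1 was at 114 and 99.6 CPM at pH 5.9 and at 55.3 and 49.5 CPM in bic (log2 -1.03, adjusted p = 0.359), and EXPA3 at 64.1 and 56.7 CPM against 28.04 and 22.06 CPM (log2 -1.28, adjusted p = 0.0937). EXPA6 and EXPA8 had -0.98 and -1.16. The replicates of these genes did not overlap, a separation whose exact two-sided permutation p is 0.333 at 2 against 2. The median of the 10 members was -1.01 against 0.18 over all genes. An unadjusted p under 0.05 was found for 5 members and for 3678 of the 18603 genes. Without the 3 replicates in doubt EXPA1 and EXPA3 were called at the same folds together with EXPA9 (3.20% of all genes).

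**Figure D4:**
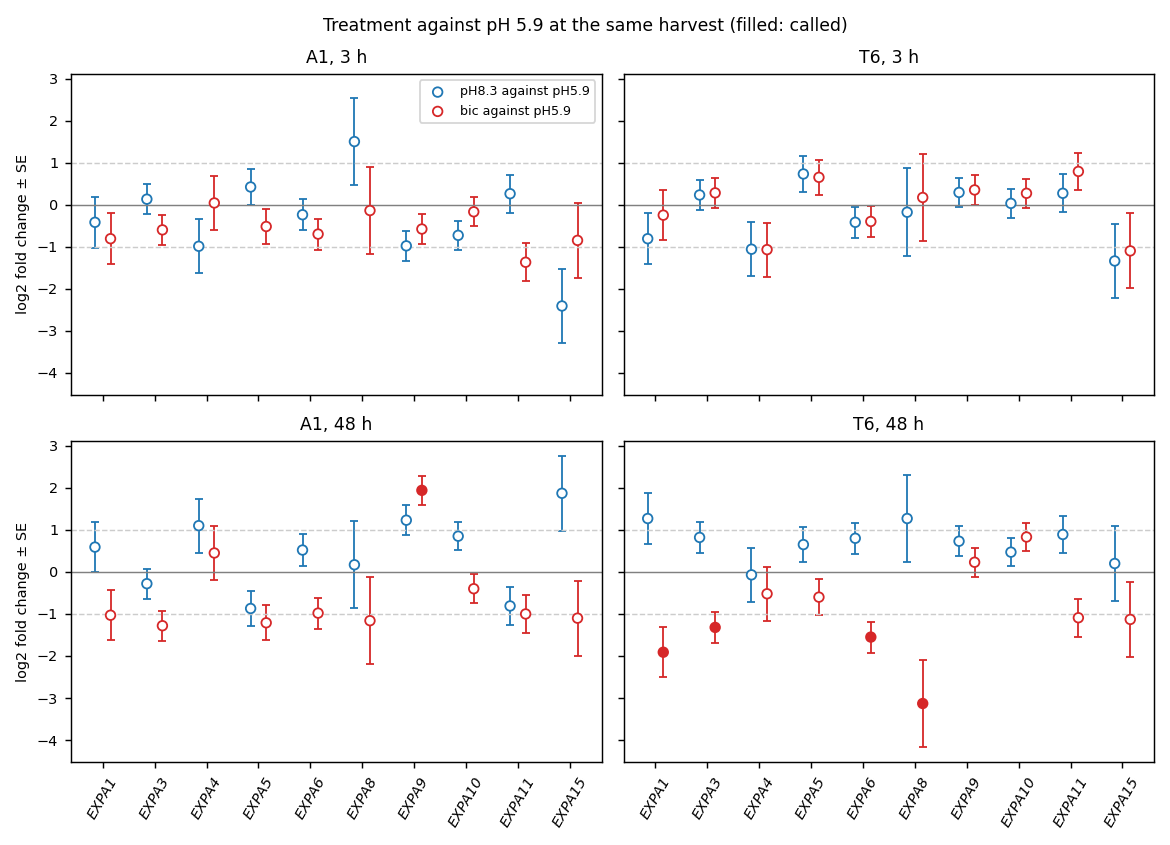
Log2 fold change of each alpha-expansin (vertical axis, bars are the SE of the fit) for bic and for pH8.3 against pH 5.9, in panels by deme and harvest, filled points being called. Filled points are found only at 48 h, EXPA9 in A1(c+) and EXPA1, EXPA3, EXPA6 and EXPA8 in T6(c-), all with bic.

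With all 24 replicates, high pH without bicarbonate called no member in either deme at either harvest. At 48 h, 1.03% of all genes were called in A1(c+) and 0.156% in T6(c-), and 2 members in each deme had an unadjusted p under 0.05, while limma with voom weights called 0. At 48 h in T6(c-), 9 of 10 members had positive values, with a median of 0.76 against 0.05 over all genes. Replicate 1 of that group is in doubt, and EXPA1 was at 613 CPM in it and at 87.6 CPM in replicate 2, and EXPA8 at 123 and 10.2 CPM, while the controls held 94.5 and 97.7 CPM of EXPA1 and 14.7 and 14.6 CPM of EXPA8. EXPA4 was at 77.5 and 21.9 CPM against controls of 43.4 and 43.1 CPM. In replicate 2, EXPA1, EXPA4, EXPA8 and EXPA15 lay below both controls and the other members above both. In replicate 1 every member lay above both controls. The summed level of the 10 members, 1501 CPM in that replicate, was the highest of all 24, the others lying between 253 and 813 CPM.

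Bic was also set against pH8.3, which has the same pH but lacks both the sodium and the bicarbonate of NaHCO3. Replicate 1 of each pH8.3 group at 48 h is in doubt. Fits without the replicates in doubt therefore leave 1 replicate in these groups and take its spread from the other groups. In T6(c-) 6 of 10 members fell, where 20.4% of all genes were called, 1169 of them falling and 2633 rising. The log2 fold changes were -4.4 for EXPA8, -3.18 for EXPA1, -2.35 for EXPA6, -2.14 for EXPA3, -1.98 for EXPA11 and -1.25 for EXPA5. Without the 3 replicates in doubt 4 were called downward (23.6% of all genes), at the smaller values of -1.77 for EXPA1, -1.83 for EXPA6, -1.71 for EXPA3 and -1.48 for EXPA11. Without bic replicate 2, 3 were called, EXPA1, EXPA3 and EXPA6, voom weights lost EXPA8 (adjusted p = 0.052), and a fit of only these 2 groups called 0 (adjusted p = 0.052 to 0.147 for the 6). Among the markers, LHCB1.1 (-1.82), RBCS1A (-1.59) and RBCS2B (-2.88) of the mesophyll and MYB60 (-2.11) of guard cells fell and KCS6 (1.09) of the epidermis rose in this comparison. MYB60 did not stand for its list. The 3 guard cell markers summed to 32.35 and 51.38 CPM in pH8.3 and to 50.27 and 43.61 CPM in bic. The part of these markers in the comparison was not tested.

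In A1(c+) 3 members fell in bic against pH8.3, where 4.59% of all genes were called, 609 of them falling and 244 rising. EXPA15 was at 44.9 and 15.1 CPM in pH8.3 and at 6.58 and 1.68 CPM in bic (log2 -2.97 ± 0.89, adjusted p = 0.0423), EXPA6 at 97.8 and 91.5 CPM against 49.7 and 22.6 CPM (log2 -1.50, adjusted p = 0.0213), and EXPA10 at 46.6 and 32.6 CPM against 26.3 and 10.2 CPM (log2 -1.25, adjusted p = 0.0302). The groups did not overlap in these 3 genes. Leaving out bic replicate 2 moved EXPA6 to -0.93 (adjusted p = 0.254) and EXPA10 to -0.57 (adjusted p = 0.355), and the call of EXPA15 was lost in 18 of 24 fits that leave out 1 replicate. A fit of only these 2 groups called 0 (adjusted p = 0.605 for each of the 3). The markers CDKB2;1 (-2.16, dividing cells), XCP1 (-1.24, vascular) and RBCS2B (-1.07, mesophyll) fell and KCS6 (1.05, epidermis) rose in the same comparison, and the summed dividing-cell markers were at 41.1 and 14.3 CPM in pH8.3 and at 15.5 and 2.96 CPM in bic. The 3 vascular markers summed to 121.5 and 142.4 CPM in pH8.3 and to 169.3 and 129.5 CPM in bic, so XCP1 did not stand for its list. The part of these markers in the result was not tested. Without the replicates in doubt EXPA1, EXPA3, EXPA6 and EXPA15 were called downward (11.7% of all genes).

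At 3 h no member was called in any of the 4 comparisons with pH 5.9. The shares of all genes called were 0.0161% for bic and 2.13% for pH8.3 in A1(c+), and 0% for both solutions in T6(c-). Members with an unadjusted p under 0.05 numbered 1 and 2 in A1(c+) and 0 and 0 in T6(c-), for bic and pH8.3 in turn. Over the 18603 genes the numbers were 2967 and 5031 in A1(c+) and 1615 and 1808 in T6(c-). Limma with voom weights called 0 members in each.

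EXPA15 at 3 h depended on the replicates in doubt. It was at 22.4 and 15.9 CPM in A1(c+) pH 5.9, at 3.42 and 3.68 CPM in pH8.3, and at 3.06 and 35.8 CPM in bic, the last being the replicate in doubt. Without those replicates EXPA15 was called at -2.41 in pH8.3 (adjusted p = 0.00267; 1 member called, 7.43% of all genes) and at -2.62 in bic, with EXPA1 at -1.28 and EXPA4 at -1.03 (3 members called, 5.31% of all genes). That fit keeps 1 bic replicate in A1(c+) at 3 h and takes its spread from the other groups. The A1(c+) bic calls rest on that replicate and are description only. EXPA4 was at 56.2 and 57.6 CPM in T6(c-) pH 5.9, at 27.2 and 27.1 CPM in bic and at 26.1 and 28.6 CPM in pH8.3, without overlap. EXPA4 was called in T6(c-) when the 3 were left out, at -1.07 in bic (1.60% of all genes) and at -1.06 in pH8.3 (1.70% of all genes), 1 member each time. These folds were the same with all replicates, since none of the 3 is in these comparisons.

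Whether the bicarbonate response differed between harvests or demes was tested as a difference of differences. In A1(c+) the 48 h response minus the 3 h response was called for EXPA9, 1 of 10 members (0.925% of all genes), at 2.53 ± 0.49 (adjusted p = 0.036). In T6(c-) it was called for EXPA3, 1 of 10 (10.5% of all genes), at -1.60 ± 0.51 (adjusted p = 0.0406). At 48 h the response in T6(c-) minus that in A1(c+) was called for EXPA9, 1 of 10 (4.15% of all genes), at -1.71 ± 0.49 (adjusted p = 0.0483). The calls of EXPA9 were lost in 12 and 17 of 24 fits that each leave out 1 replicate, and that of EXPA3 in 9, with an adjusted p of up to 0.183, 0.163 and 0.166. For EXPA9 in A1(c+) the adjusted p was 0.134 under TMM, and for EXPA3 in T6(c-) it was 0.0704 in a fit of only the groups compared, where EXPA1, EXPA6 and EXPA11 were called instead. For the other members, EXPA1, EXPA6 and EXPA8 among them, a difference between the demes in the response was not called. Leaving out the 3 replicates in doubt keeps 1 A1(c+) bic replicate at 3 h. The harvest calls of that fit in A1(c+) are therefore description only. Without the 3 replicates in doubt, 1 of which is in the A1(c+) bic group at 3 h, EXPA4 (1.47, adjusted p = 0.0103) and EXPA9 (2.29, adjusted p = 0.019) were called upward between the harvests in A1(c+) (8.77% of all genes), and EXPA1, EXPA3 and EXPA11 downward in T6(c-) (18.1% of all genes).

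At pH 5.9 the demes themselves differed in EXPA11. At 48 h it was at 205 and 178 CPM in A1(c+) and at 66.1 and 62.4 CPM in T6(c-) (log2 -1.57 ± 0.45 for T6(c-) against A1(c+), adjusted p = 0.0336), 1 of 10 members called where 7.65% of all genes were. Leaving out any 1 of these 4 replicates ended the call (adjusted p = 0.122 to 0.167), as did quantile normalization (adjusted p = 0.0576), which called EXPA10 instead. At 3 h it was at 86.8 and 96.2 CPM against 36.1 and 35.8 CPM (log2 -1.35, adjusted p = 0.0721), with no overlap at either harvest. No member was called at 3 h (4.73% of all genes), where limma with voom weights called 0 members. An unadjusted p under 0.05 was found there for 2 members and for 4976 of the 18603 genes.

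EXPA4 and EXPA15 had positive values that did not pass the test. EXPA4 was at 23.95 and 20.6 CPM in A1(c+) and at 56.2 and 57.6 CPM in T6(c-) at 3 h, and EXPA15 at 22.4 and 15.9 CPM against 45.4 and 45.4 CPM. Without the 3 replicates in doubt, EXPA4 (1.36), EXPA15 (1.27) and EXPA11 (-1.35) were called at 3 h (3 members, 10.0% of all genes), and at 48 h EXPA4, EXPA9, EXPA10 and EXPA15 upward and EXPA11 downward (5 members, 13.0% of all genes).

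Other wall and growth genes were followed in the same comparisons, from gene lists written from general knowledge. In T6(c-) bic 48 h all 4 of the SAUR19 subfamily in the table fell, with log2 fold changes of -2.74 for SAUR20, -2.59 for SAUR21, -2.39 for SAUR23 and -2.35 for SAUR24. SAUR proteins of this group raise H+-ATPase activity and so acidify the wall. Of 5 plasma membrane proton pumps AHA11 fell (log2 -1.18 ± 0.17). Of 10 growth transcription factors 2 rose and 4 fell, among them PIF3 (2.67), a phytochrome-interacting factor, PRE5 (-2.60) and PRE1 (-2.42), small HLH proteins that promote elongation, and HBI1 (-1.17), a bHLH activator of cell elongation.

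The xyloglucan endotransglucosylase/hydrolases (XTH), which cut and rejoin the xyloglucan tethers on which wall loosening also depends, moved both ways, with 5 of 25 rising and 4 falling. XTH23 rose by 3.10, XTH31 fell by 2.75, XTH11 rose by 2.37 and XTH22 rose by 2.12. Of 5 beta-expansins and expansin-like genes EXLB1 rose by 3.11 and EXPB1 fell by 3.59, and none of the 4 other alpha-expansins in the table or of the 6 primary-wall cellulose synthases was called. In A1(c+) bic 48 h, XTH6 (-2.04), XTH8 (-1.60) and AHA11 (-1.34) fell.

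Over harvest time 3 of 4 SAUR19 genes fell, and HBI1 (-2.50), PRE1 (-1.30) and PIF4 (-1.11) fell while AHA11 rose by 1.32. Of 25 XTH genes 3 rose and 2 fell, among them XTH31 (-1.58), XTH19 (1.43), XTH18 (-1.26) and XTH15 (1.08). EXLB1 rose by 1.78. In this comparison 10.0% of all genes were called, 739 of them rising and 1123 falling.

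As a description over the 24 replicates, which share the harvest, deme and solution differences, EXPA3 and EXPA6 had the most similar profiles among the members (Pearson r = 0.88 on the log2 values), followed by EXPA1 and EXPA6 (0.87) and EXPA4 and EXPA15 (0.85). The 45 pairs of members had a median r of 0.31 and ran from -0.56 (EXPA10 and EXPA11) to 0.88, with 11 below 0. The gene of the table most like EXPA8 was SAUR23 (0.93). For EXPA15 it was AT2G01913 (0.97), for EXPA4 COBL1 (0.96), for EXPA1 AT5G57170 (0.94), for EXPA3 GH9C2 (0.93), for EXPA6 YLMG2 (0.93), for EXPA10 AT5G50370 (0.93), for EXPA9 AT2G38550 (0.89), for EXPA11 IAA7 (0.89) and for EXPA5 FLA18 (0.87).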

How the data were processed

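Leaf RNA libraries (unstranded, 150-base paired-end reads, 72 libraries) were made from 2 demes, 3 solutions and 2 harvests. The methods name TopHat, Bowtie and DESeq, and the submitters' processing notes name FastQC, Trim Galore, Salmon, DESeq2, DESeq 1.18.0 and TAIR10, so the aligner and counter behind the table are not certain. The table deposited by the authors holds log2 CPM, that is reads scaled by the size of the library, in 24 columns, 1 for each biological replicate with its technical replicates summed, with 0.5 reads added to each count and 1 to the library total. The values themselves gave this form, as 100% of the values under 200 reads came out as whole reads within 0.02. The log2 values were used as deposited, without a filter, and CPM was computed back from them. The methods name both 3 biological replicates and 2 with 3 technical replicates each, and the columns give 2. With 2 replicates in each group the smallest two-sided p of an exact permutation test is 0.333, so the spread was shared across genes.

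All 18603 genes were fitted in 1 limma 3.58.1 model (R 4.3.3) of 12 group means with empirical Bayes moderation and a mean-variance trend. Tests were two-sided, with Benjamini-Hochberg adjustment over all genes within a comparison. The procedure was tested on simulated data. Alternatives were TMM factors, quantile normalization, a pseudocount of 1 CPM, a filter at a mean of 10 CPM, a replicate block, no trend, voom weights, a fit of only the groups compared, each replicate left out in turn, and the 3 replicates in doubt left out. Leaving out 2 more T6(c-) replicates was added after seeing the data.

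All 10 members are named. From the other lists at most 4 called genes per list and comparison with the largest absolute log2 fold change are named. For likeness, the gene and the member with the highest Pearson r are named. The members and lists were chosen with earlier results of these data known. Motifs, gene positions and shared 50-base stretches were taken from RefSeq gene models on TAIR10.1 with Python 3.11.15, and figures were drawn with matplotlib 3.10.9. Protein sequences were not used here.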

Additional observations from a re-analysis of the deposited data

Results flagged for a closer look

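The response of EXPA9 to bicarbonate in A1(c+), as the log2 difference between bic and pH 5.9, was 2.53 higher at 48 h than at 3 h (adjusted p = 0.036, limma), and both bic replicates at 48 h lay above both pH 5.9 replicates. The response of EXPA3 in T6(c-) differed between the harvests by -1.60 (adjusted p = 0.0406), with both bic replicates below both controls at 48 h and above both at 3 h. The response of EXPA9 at 48 h in T6(c-) minus that in A1(c+) was -1.71 (adjusted p = 0.0483). In each case the difference of the 2 responses was itself tested.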

How the results depend on the processing

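The counts of members called in the 18 comparisons were recomputed under every alternative. Of the 24 calls of single members, 675 of 808 refits kept the call and 133 lost it, and no value that had been called changed sign. The median log2 fold change over all genes lay between -0.28 and 0.39 across the comparisons with the deposited scaling and within 0.08 of 0 under TMM and quantile normalization.

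Over all groups, 48 h against 3 h called 2 members, and 1 with a pseudocount of 1 CPM or the filter at a mean of 10 CPM, which drops EXPA9 in every comparison. At pH 5.9 in A1(c+) the 3 calls over time became 6 without the 3 replicates in doubt, 6 with 2 more left out and 6 with only the groups compared, and 2 under TMM and quantile normalization, which lost EXPA10, and under the filter. In T6(c-) the 1 call became 0 with the filter and 2 under each of those 3 settings. Bic against pH 5.9 at 3 h called 0, but in T6(c-) 1 without the replicates in doubt and 2 with only the groups compared. In A1(c+) leaving out the replicates in doubt leaves 1 bic replicate, so its count is not compared here. At 48 h in A1(c+) the 1 call became 0 under quantile normalization, the filter, voom weights and only the groups compared, 3 without the replicates in doubt and 2 with 2 more left out. The pH8.3 comparison at 3 h called 0, but in A1(c+) 1 under each of those 3 settings, and in T6(c-) 1 without the replicates in doubt and 2 with only the groups compared. Bic against pH 5.9 at 48 h in T6(c-) called 4, but 5 under TMM and quantile normalization, 6 without the replicates in doubt, 5 with 2 more left out, and 3 with voom weights or only the groups compared, the latter without EXPA3 and EXPA8. Bic against pH8.3 at 48 h called 0 in either deme when only the groups compared were fitted.

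Leaving out the replicates in doubt leaves 1 A1(c+) bic replicate at 3 h, so no count is given for it here. The change of the bic response between harvests in A1(c+) went from 1 call to 0 under TMM, quantile normalization, the filter and only the groups compared. In T6(c-) it went from 1 to 2 under TMM, quantile normalization, the pseudocount, the filter, voom weights and 2 more left out, and to 3 without the replicates in doubt and with only the groups compared, the last without EXPA3. The difference between the demes at 48 h went from 1 to 0 under quantile normalization, the pseudocount, the filter, voom weights, 2 more left out and only the groups compared. T6(c-) against A1(c+) at pH 5.9 went from 0 to 3 at 3 h without the replicates in doubt and with only the groups compared, and to 2 with 2 more left out. At 48 h it went from 1 to 2 under TMM and voom weights, to 5 without the replicates in doubt, to 3 with 2 more left out and to 6 with only the groups compared, while under quantile normalization the 1 call was EXPA10 and not EXPA11. Apart from what these settings do by construction, the cause was not tested.

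Leaving out each replicate in turn gave 1 to 3 members over all groups, 1 to 4 over time in A1(c+) and 1 to 2 in T6(c-). For bic against pH 5.9 it gave 0 to 1 at 3 h and 0 to 2 at 48 h in A1(c+), and 0 to 0 and 0 to 5 in T6(c-). For pH8.3 against pH 5.9 it gave 0 to 1 at either harvest in A1(c+), and 0 to 0 at 3 h and 0 to 1 at 48 h in T6(c-). Bic against pH8.3 gave 1 to 4 in A1(c+) and 3 to 6 in T6(c-). The change of the bic response between harvests gave 0 to 1 in A1(c+) and 0 to 3 in T6(c-), and the difference between the demes 0 to 1. The demes at pH 5.9 differed in 0 to 1 members at 3 h and 0 to 3 at 48 h. A group left with 1 replicate was assumed to vary like the others.

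With a replicate block, T6(c-) against A1(c+) at pH 5.9 and 48 h called 2 members and bic against pH8.3 in A1(c+) 2, and the other counts did not move. Same-numbered replicates did not deviate together across the groups as a whole (r = -0.42 to 0.44 over 66 pairs of groups, median -0.01, 11 above 0.1). Whether some of the groups shared a batch cannot be told from these values.

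Depth does not limit these values, since the lowest, EXPA8 at 0.562 CPM, rests on 58 reads. Precision is set by 2 replicates per group, which differed far beyond counting noise except in T6(c-) pH 5.9, so p-values measure the spread between these pooled samples only.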
